A study of Mus musculus with 63 samples.

Results

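The voltage-gated sodium channel subunits Scn1a, Scn2a1, Scn3a, Scn8a, Scn2b and Scn3b and the intracellular fibroblast growth factors Fgf12, Fgf13 and Fgf14 were followed in single cells of the mouse primary visual cortex (V1). These 9 genes were taken by symbol from the 20183 genes of the deposited table, all 9 were found there, and Scn2a is listed under its older symbol Scn2a1. Each library came from the soma of a single layer 2/3 cell, drawn into a pipette after its calcium response to light gratings had been recorded with the dye Cal-520 AM under light anaesthesia. Cells that responded to most of the stimuli were labelled light-sensitive (LS), those that responded rarely or never were called NS, cells in between were not included, and every cell came from the brain of a wild type C57BL/6 mouse aged 70 days. The table holds 46 LS and 17 NS cells, of which the filters that the study states left 35 LS and 12 NS cells, and all values are for these unless said otherwise. The labels do not tie a cell to a mouse or a day, so each group was handled as 1 sample of cells. No test between the groups was possible, and each SD is the spread between cells. Intervals on shares of cells take the cells as independent draws, which the labels cannot show, and do not cover differences between mice.

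The alpha subunits of the sodium channel form the pore that opens on depolarisation and carries the upstroke of the action potential, and a short loop between the third and the fourth domain then closes it. Scn1a (Nav1.1) is best known from fast-spiking and other GABAergic interneurons, Scn2a1 (Nav1.2) from excitatory neurons, Scn3a (Nav1.3) from the embryonic brain, and Scn8a (Nav1.6) from the axon initial segment of adult neurons. Beta subunits such as Scn2b and Scn3b are membrane proteins with an immunoglobulin domain that tune the channel and its surface level. Fgf12, Fgf13 and Fgf14 belong to the FGF homologous factors (FHFs), which are not secreted, stay in the cell, bind the C-terminal tail of alpha subunits and shape their inactivation.

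The genes are close relatives, and reads can be assigned to each of them only where their sequences differ. Their positions are those of GENCODE M21 on GRCm38, and the transcripts used to compare their coding bases are from the same annotation.

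Scn3a, Scn2a1 and Scn1a lie near each other on chromosome 2, at 65457118 to 65567627, 65620771 to 65767447 and 66270778 to 66440840, with 53143 bases and no protein-coding gene between the first pair. Scn8a lies on chromosome 15 at 100869858 to 101045938, and the beta subunits lie on chromosome 9, Scn3b at 40269217 to 40291618 and Scn2b at 45117782 to 45130070. Over the aligned coding bases Scn1a and Scn2a1 were 83.0% identical and Scn2a1 and Scn3a 84.3%, whereas Scn8a was 74.7% to 75.1% identical with the other 3. The longest identical run between Scn1a and Scn2a1 had 188 bases. Of all stretches of 100 coding bases, 97 of 5928 in Scn1a, 133 of 5919 in Scn2a1 and 96 of 5742 in Scn3a also occurred in another of the 9 genes, and none did in Scn8a, the beta subunits or the FHFs. In genes outside the 9, 185 stretches of Scn3a occurred in Scn9a or Gm13629, and 4 each of Scn1a and Scn2a1 in Scn9a. These may include stretches already counted in another of the 9 genes. Levels of the 3 alpha subunits on chromosome 2 therefore carry a small uncertainty of assignment.

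The FHFs are further apart, and the window of 90 coding bases that is most alike in all 3 is shown to let their differences be seen. Capitals mark positions at which the 3 genes are not all alike, and the window lies in exon 4 of 5 of each gene.
Fgf12 (chr16:28189537-28189626, minus strand): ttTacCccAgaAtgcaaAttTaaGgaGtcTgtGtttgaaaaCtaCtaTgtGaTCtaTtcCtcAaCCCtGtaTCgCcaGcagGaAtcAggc
Fgf13 (chrX:59067504-59067593, minus strand): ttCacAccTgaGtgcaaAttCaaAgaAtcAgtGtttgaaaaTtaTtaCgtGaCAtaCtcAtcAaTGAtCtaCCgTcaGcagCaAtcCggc
Fgf14 (chr14:123983872-123983961, minus strand): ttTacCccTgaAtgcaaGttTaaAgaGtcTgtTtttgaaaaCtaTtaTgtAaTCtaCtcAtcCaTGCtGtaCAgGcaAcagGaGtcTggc
The 3 genes differed at 30 of these 90 bases, with 23 differences between Fgf12 and Fgf13, 22 between Fgf13 and Fgf14 and 17 between Fgf12 and Fgf14. No run of identical coding bases between any pair of them was longer than 15. Fgf13 spans 59062145 to 59568071 on chromosome X, Fgf12 spans 28160098 to 28753068 on chromosome 16 and Fgf14 spans 123977907 to 124677127 on chromosome 14. An antisense gene, Gm28932, covers 220 of the 4182 exonic bases of Fgf14, and reads on this part cannot be told apart without strand.

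The groups differed in depth and in RNA content before any of the 9 genes was considered. LS cells had 366559 to 2509555 recovered reads on the listed genes (median 872255), and NS cells had 149047 to 885726 (median 316670). The median number of genes above 1 FPKM (fragments per kilobase of transcript, scaled to sequencing depth) was 5890 in LS and 3062 in NS cells. A set of 1031 odorant, vomeronasal and taste receptor genes, which cortical neurons are not known to use, averaged 0.489 FPKM in LS cells against 6.53 FPKM in NS cells. Set against the level that an even spread of all reads over exons would give, the receptor genes reached a median of 2.54% in LS and 42% in NS cells, with 4 of 35 LS and 9 of 12 NS cells at 10% or above.

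General neuron markers were low in most NS cells. The summed level of Snap25, Syt1, Rbfox3, Map2, Tubb3 and Stmn2 ran from 0 to 1344 FPKM in LS cells (median 724) and from 0 to 1182 FPKM in NS cells (median 10.7). All 6 markers were detected in both groups, Snap25 in 32 of 35 LS and 5 of 12 NS cells and Tubb3 in 31 of 35 and 3 of 12. Map2 had the higher mean in NS cells, at 13.3 FPKM in LS against 22.4 in NS cells, and the other neuron markers in LS cells. The median summed level of 4 microglia markers was 83.2 FPKM for LS against 12.4 for NS cells, and that of 3 astrocyte markers 32.8 against 29.2 FPKM. The means of these sums were higher in NS cells, at 234 against 425 FPKM for microglia and 98.5 against 178 FPKM for astrocyte markers. Within the lists Csf1r, C1qa, Gfap and Aqp4 had the higher mean in NS cells, and Cx3cr1, P2ry12 and S100b in LS cells. The part of these differences in the values below was not tested.

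Across the 9 genes, 6 had a higher mean FPKM in LS than in NS cells, namely Scn2a1, Scn8a, Scn2b, Scn3b, Fgf12 and Fgf13, against 47.6% of the 16334 genes that averaged 1 FPKM or more in a group. The log2 ratio of the means was above 2.5 for 3 of the 9, Scn2a1, Scn3b and Fgf13, against 18% of all genes, and below -2.5 for none of the 9, against 22.5%. The median log2 ratio of the 9 genes was 0.55 and that of all genes -0.18. A larger share of LS than of NS cells had a read for 8 of the 9, all except Scn3a, against 72.5% of all genes. The share was at least 50 percentage points higher in LS for 3 of the 9, Scn2b, Scn3b and Fgf13, against 10.5% of all genes.

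**Figure D1:**
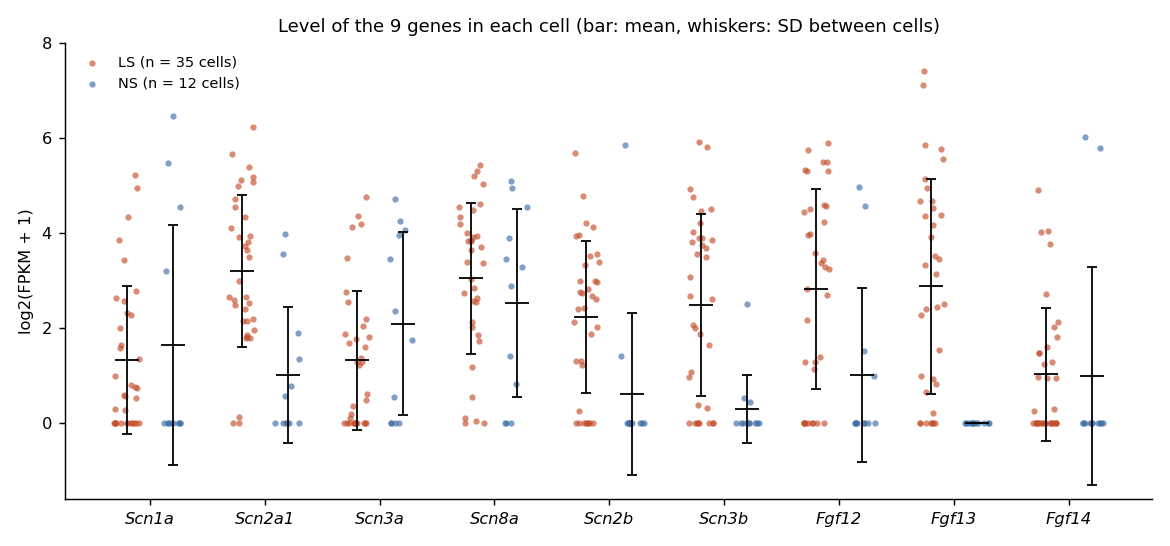
Level of each of the 9 genes as log2(FPKM + 1) on the vertical axis, with a point for each of 35 LS and 12 NS cells, a bar at the mean and whiskers of 1 SD between cells. Cells without a read sit at 0, where all 12 NS cells and 7 LS cells lie for Fgf13, and the groups overlap for each of the 9 genes.

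Within LS cells 6 of the genes averaged above 7 FPKM and 3 below 5 FPKM. The mean level was 20.8 FPKM for Fgf13, 14.8 for Fgf12, 14.7 for Scn2a1, 12.1 for Scn8a, 10.7 for Scn3b and 7.12 for Scn2b, and then 4.16 for Scn1a, 3.57 for Scn3a and 2.81 for Fgf14. By the median the order changed at the top, with 9.46 FPKM for Scn8a, 8.65 for Fgf12, 7.78 for Fgf13 and 6.97 for Scn2a1, while Scn3a (1.33), Scn1a (0.665) and Fgf14 (0.182) again came last. The difference between neighbours in either order was smaller than the SD of each of the 2 genes.

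Scn2a1, the alpha subunit best known from excitatory neurons, had a read in 33 of 35 LS cells and in 6 of 12 NS cells. Its level ran from 0 to 73.9 FPKM in LS cells (median 6.97), with a mean of 14.7 ± 16.6 FPKM (SD, n = 35 cells). In NS cells it ran from 0 to 14.7 FPKM (median 0.236), with a mean of 2.57 ± 4.88 FPKM (SD, n = 12 cells). The ranges overlapped, but 3 NS cells held most of its NS level, NS_2 with 14.7, NS_16 with 10.7 and NS_15 with 2.68 FPKM. The log2 ratio of the means was 2.52, near the limit of 2.5, and it was at or below this limit in 18 of the 47 repeats that left out 1 cell. It was 3.32 without NS_2 and 3.01 without NS_16. After thinning every cell to 200000 reads, 32 of 35 LS and 2 of 8 NS cells kept a read of Scn2a1.

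Scn8a, the alpha subunit of the mature initial segment, was the gene of the 9 with the highest share of NS cells with a read. It was seen in 33 of 35 LS cells and in 9 of 12 NS cells. Its level ran from 0 to 41.8 FPKM in LS (median 9.46, mean 12.1 ± 11.3, SD, n = 35 cells) and from 0 to 32.9 FPKM in NS cells (median 7.54, mean 10.5 ± 11.9, SD, n = 12 cells). The groups overlapped over almost their whole range and the log2 ratio of the means was 0.20, well within the spread between cells. Where receptor genes stood below 10% the mean of the 3 NS cells was 3.46 FPKM, and in the other 9 it was 12.9 FPKM.

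Scn1a, the alpha subunit of fast-spiking interneurons, had a read in more LS cells but a higher mean in NS cells. It was seen in 23 of 35 LS cells, at 0 to 36.1 FPKM (median 0.665, mean 4.16 ± 8.35, SD, n = 35 cells). It was seen in 4 of 12 NS cells, at 87.1 FPKM in NS_16, 43.1 in NS_13, 22.4 in NS_4 and 8.23 in NS_12, which gave a mean of 13.4 ± 26.7 FPKM (SD, n = 12 cells). Of these 4 cells, NS_12, NS_13 and NS_16 carried Gad1 and Gad2, the enzymes of GABA synthesis, and NS_16 held 9164 FPKM of the interneuron peptide Sst. NS_16 also held 28.8 FPKM of the excitatory marker Slc17a7, so its markers were mixed. The log2 ratio of the means was -1.69, and it was -0.69 without NS_16. The 4 NS values lay above the LS median, and 2 of them above the highest LS value, while 8 NS cells were at 0.

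Scn3a, the alpha subunit best known from development, was the gene of the 9 with a slightly higher share of NS than of LS cells with a read, 8 of 12 against 23 of 35. Its level ran from 0 to 25.9 FPKM in LS (median 1.33, mean 3.57 ± 6.37, SD, n = 35 cells) and from 0 to 25.2 FPKM in NS cells (median 3.25, mean 7.51 ± 8.83, SD, n = 12 cells). Its log2 ratio was -1.07, with the groups overlapping throughout. LS_2, which the filters removed for its low number of genes, held 252.6 FPKM of Scn3a. With LS_2 added to the other cells the log2 ratio was 0.48, and with all 63 cells it was 0.67. In the 30 LS and 2 NS cells with more excitatory than inhibitory markers, which do not include LS_2, it was 0.87. These 2 NS cells, NS_8 and NS_9, had receptor genes at 118.1% and 50.9%, and NS_8 also carried Gad1, Gad2 and Sst.

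The 4 alpha subunits together gave nearly the same mean in both groups, 34.5 ± 30.2 FPKM for LS (SD, n = 35 cells) and 34 ± 32.6 for NS (SD, n = 12 cells), while their make-up differed. Scn2a1 was the highest alpha subunit in 19 LS cells, Scn8a in 11, Scn1a in 2 and Scn3a in 2, and 1 LS cell had no read of any. In NS cells Scn8a was highest in 4, Scn3a in 4, Scn1a in 3 and Scn2a1 in none, and 1 cell had no read of any. All 4 were seen together in 16 of 35 LS and 2 of 12 NS cells. As a mean share of the summed level per cell, Scn2a1 took 44.2% in LS and 6.68% in NS cells, Scn8a 35.6% and 39.8%, Scn3a 10.2% and 28.9%, and Scn1a 10.1% and 24.7%.

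**Figure D2:**
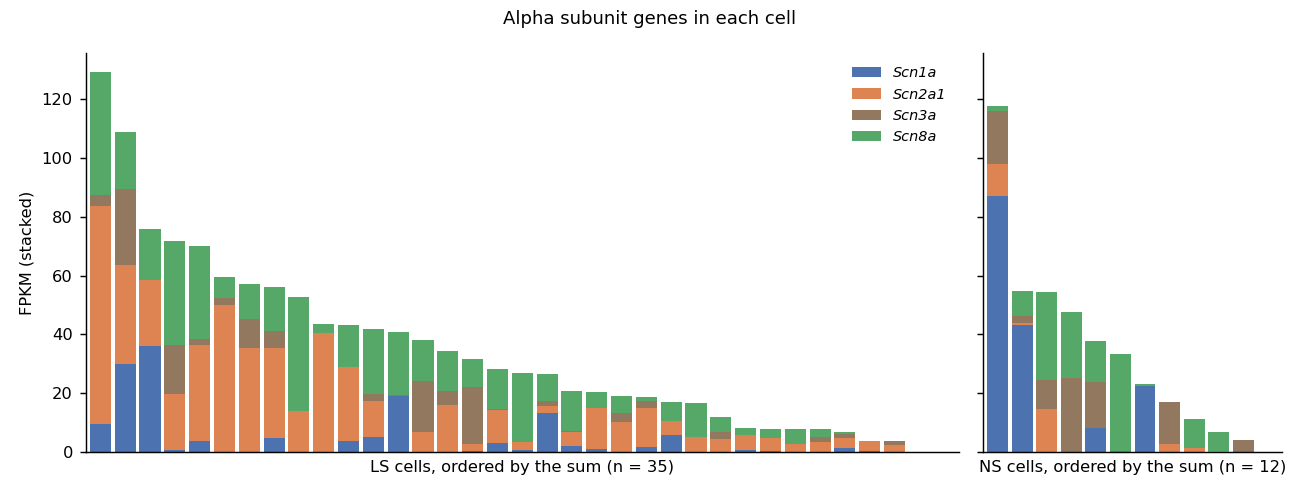
Stacked FPKM of the 4 alpha subunit genes (vertical axis) in each of 35 LS cells (left) and 12 NS cells (right), ordered by their sum. Scn2a1 and Scn8a make up most of the bars in LS cells, whereas Scn2a1 is small in NS cells and the tallest NS bar, 117.5 FPKM in NS_16, is mostly Scn1a.

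Scn3b, a beta subunit that binds alpha subunits without a disulfide bond, had the highest ratio of means among the 6 subunit genes. It had a read in 27 of 35 LS cells at 0 to 59.5 FPKM (median 5.34, mean 10.7 ± 14.2, SD, n = 35 cells). In NS cells it had a read in 3 of 12, at 4.68 FPKM in NS_16, 0.432 in NS_4 and 0.361 in NS_9, with a mean of 0.456 ± 1.34 FPKM (SD, n = 12 cells). Over all cells of a group this was 3077 reads in LS and 21 reads in NS cells. LS exceeded NS by 4.55 on the log2 scale, and by 7.21 without NS_16, which held most of the NS level. The groups overlapped because 8 LS cells had no read and several were below 4.68 FPKM.

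Scn2b, the beta subunit that is joined to alpha subunits by a disulfide bond, differed in its spread over cells more than in its mean. It had a read in 27 of 35 LS cells at 0 to 49.9 FPKM (median 5.07, mean 7.12 ± 9.64, SD, n = 35 cells). Only 2 of 12 NS cells had a read, NS_16 with 56.9 FPKM and NS_14 with 1.66 FPKM (mean 4.88 ± 16.4, SD, n = 12 cells). The highest value of both groups was therefore an NS cell. The ratio of the means on the log2 scale was 0.55 with NS_16 and 5.56 without it, and -0.14 from reads pooled over cells. Both beta subunits were seen together in 24 of 35 LS cells and 1 of 12 NS cells, and their summed level was 17.8 ± 18.3 FPKM for LS (SD, n = 35 cells) and 5.33 ± 17.7 for NS (SD, n = 12 cells).

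Fgf13, an FHF that binds sodium channels and also microtubules, was not seen in any of the 12 NS cells. In LS cells it had a read in 28 of 35 (80%, exact binomial 95% interval 63.1% to 91.6%), at 0 to 169.4 FPKM (median 7.78, mean 20.8 ± 36.8, SD, n = 35 cells). For NS cells 0 of 12 leaves a share of up to 26.5% at the upper end of the exact interval. The summed reads were 3426 in LS and 0 in NS cells, out of 36656543 and 4559937 reads on the listed genes. Taking 3 reads over the NS group as an assumed limit, pooled reads gave 19.7 FPKM for LS against 0.138 for NS. This was 142.6-fold higher in LS (log2 ratio 7.16), and the lower end of the pooled 95% interval was 6.86. Both treat reads as independent draws. The reads were uneven over cells, with 20.3% of the LS reads in LS_39, so neither value is a firm lower bound. With the same 3 reads all placed in NS_6, the shallowest NS cell, the ratio of means over cells was 59.3-fold (log2 ratio 5.89). With all 63 cells, where NS_17 had 26 reads, the log2 ratio of the means was 5.38, below each of these values. Within single NS cells 3 reads of Fgf13 would be 0.713 to 4.2 FPKM, and 21 of the 35 LS cells were above the highest of these limits. Among the 2318 genes seen in as many LS cells as Fgf13 or more, 22 (0.949%) had no read in any NS cell, Fgf13 included. Fgf13 lies at the lower edge of that set, which otherwise holds genes seen in as many or more LS cells. Among the 13464 genes that averaged 1 FPKM or more in LS cells, 1535 (11.4%) had no read in any NS cell.

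The Fgf13 level of LS cells was uneven. It was above 10 FPKM in 15 LS cells, above 50 in 4 and above 100 in 2, LS_39 with 169.4 and LS_17 with 137.7 FPKM. These 2 cells held 42.3% of the summed LS level, and the LS mean without them was 12.7 FPKM. LS_39 carried 210.8 FPKM of Vip, an interneuron peptide, and 5.21 FPKM of summed general neuron markers, whereas LS_17 carried 244.7 FPKM of Slc17a7, the vesicular glutamate transporter, and 898.5 FPKM of general neuron markers. The 7 LS cells without a read had a median depth of 784708 reads, against 905780 in the 28 with a read, and 5 of the 7 had reads of Fgf12. The NS cell that the filters removed for carrying excitatory and inhibitory markers together, NS_17, had 6.93 FPKM of Fgf13, so 1 of the 17 NS cells of the table had a read.

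Fgf12, the relative that came closest to Fgf13 in level, was present in both groups. It had a read in 26 of 35 LS cells at 0 to 58.6 FPKM (median 8.65, mean 14.8 ± 17.2, SD, n = 35 cells). In NS cells it had a read in 4 of 12, at 30.02 FPKM in NS_9, 22.7 in NS_16, 1.87 in NS_12 and 0.991 in NS_8 (mean 4.63 ± 10.3, SD, n = 12 cells). On the log2 scale the ratio was 1.67 and it was 2.67 without NS_9. NS_3, which the filters removed for astrocyte markers, held 265.2 FPKM of Fgf12, and with all 63 cells the log2 ratio was -0.62. After thinning, 26 of 35 LS and 4 of 8 NS cells had a read of Fgf12, against 27 of 35 and 0 of 8 for Fgf13.

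Fgf14, the FHF linked to ataxia, had the lowest LS mean of the 9 genes and a higher mean in NS cells. It had a read in 18 of 35 LS cells at 0 to 29 FPKM (median 0.182, mean 2.81 ± 6.11, SD, n = 35 cells). In NS cells it had a read in 2 of 12, NS_6 with 63.3 and NS_8 with 54.5 FPKM (mean 9.81 ± 23, SD, n = 12 cells). Both values lay above all LS cells, and in both cells the receptor genes were above the even-spread level, at 102.6% and 118.1%. This gave a log2 ratio of -1.80, which was -0.82 without NS_6. Where receptor genes stood below 10%, Fgf14 was not seen in any of the 3 NS cells.

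The 3 FHFs were seen together in many LS cells, and whether they replace each other was not tested. All 3 had reads in 14 of 35 LS cells, 2 of them in 11, a single gene in 8 and none in 2, against 0, 1, 4 and 7 of the 12 NS cells. Fgf13 was the highest FHF in 17 LS cells, Fgf12 in 14 and Fgf14 in 2. Fgf12 and Fgf13 each exceeded the other about equally often, Fgf12 in 16 and Fgf13 in 17 LS cells, and their levels over the 35 cells had a Spearman rho of -0.07, given as a description over cells that share the depth of their library. Fgf13 exceeded Fgf14 in 25 LS cells and was below it in 5. The summed FHF level was 38.4 ± 39.4 FPKM for LS (SD, n = 35 cells) and 14.4 ± 23.3 for NS (SD, n = 12 cells).

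**Figure D3:**
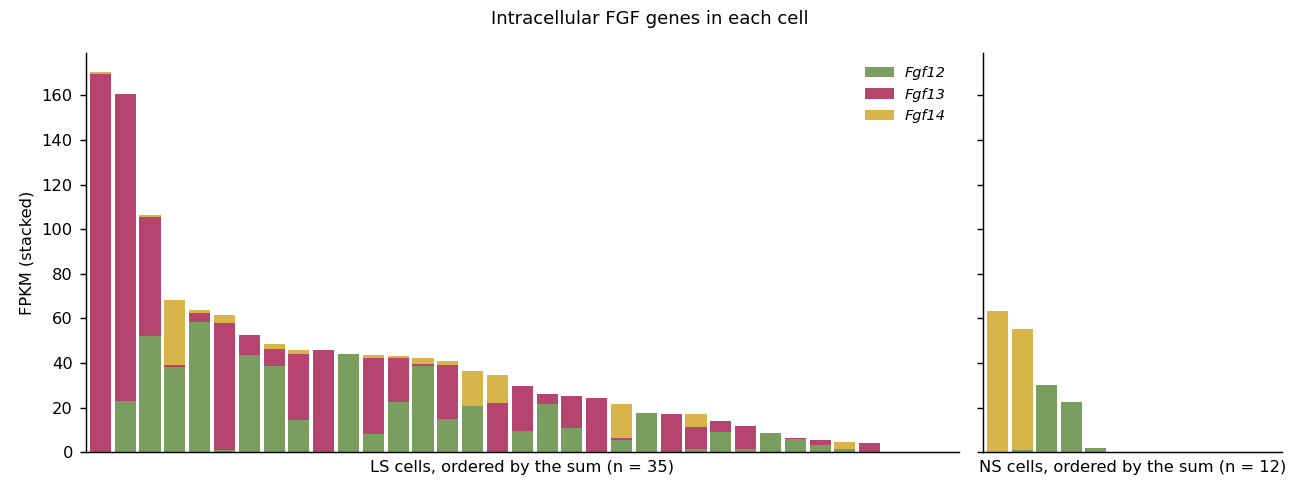
Stacked FPKM of Fgf12, Fgf13 and Fgf14 (vertical axis) in each of 35 LS cells (left) and 12 NS cells (right), ordered by their sum. The bars of LS cells are mixtures in which Fgf13 or Fgf12 leads, and the 5 NS cells with any FHF read hold Fgf12 or Fgf14 and no Fgf13.

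The share of cells with a read was compared again at equal depth, since NS cells were shallower. With each cell thinned to 200000 reads, all 35 LS cells and 8 of the 12 NS cells remained, 4 NS cells being too shallow. In these same cells the median difference in share between the groups over the 9 genes was 38.9 percentage points with all reads and 30.4 after thinning, and over all genes tested it was 13.9 and 11.4. Scn1a was seen in 23 of 35 LS cells against 4 of 8 NS cells with all reads and in 20 of 35 and 4 of 8 after thinning, the 4 NS cells left out having no read of it. Scn3a went from 23 of 35 against 5 of 8 to 19 of 35 against 5 of 8, so that its share turned from slightly higher in LS to lower. Fgf13 went from 28 to 27 of 35 LS cells and was not seen in the 8 NS cells. With all reads, in the 35 LS and 12 NS cells, receptor genes were seen on average in 2.22% of LS cells against 6.58% of NS cells. Their shares were not compared after thinning.

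**Figure D4:**
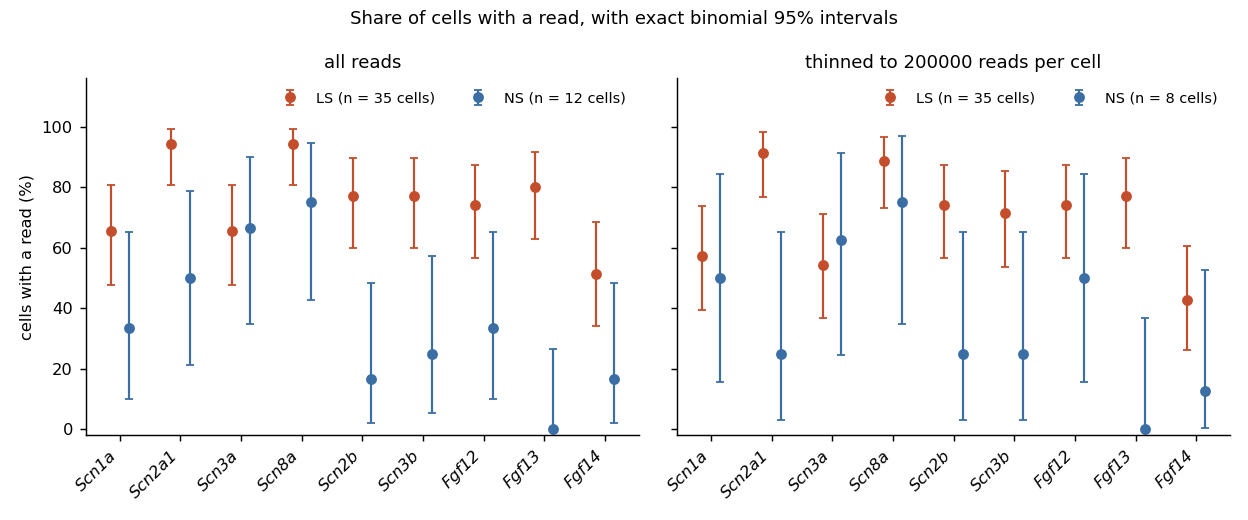
Percentage of LS and NS cells with at least 1 read of each gene (vertical axis), with exact binomial 95% intervals, for all reads (left, 35 LS and 12 NS cells) and after thinning to 200000 reads a cell (right, 35 LS and 8 NS cells). The share of LS cells is 94.3% for Scn2a1 and 80% for Fgf13 on the left and 91.4% and 77.1% on the right, and that of NS cells is 50% and 0% on the left and 25% and 0% on the right.

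In the same cell, the level of a gene can be set against the mean level of the receptor genes. This level is a mean over 1031 genes, which had a read in only 2.22% of LS and 6.58% of NS cells on average. A mean over mostly zeros is low, so a gene with a read can lie above it whatever the source of the read. The counts among cells with a read therefore do not tell expression from unspecific reads. Of the LS cells with a read of Fgf13, 27 of 28 were above the receptor level of their own cell, as were 32 of 33 for Scn2a1, 32 of 33 for Scn8a, 26 of 27 for Scn3b, 25 of 26 for Fgf12 and 25 of 27 for Scn2b. The counts were lower for Scn1a (18 of 23), Scn3a (20 of 23) and Fgf14 (16 of 18). In NS cells 3 of the 6 cells with a read of Scn2a1, 7 of 9 for Scn8a, 5 of 8 for Scn3a and 1 of 3 for Scn3b were above it. So were 4 of 4 NS cells with a read of Scn1a, 3 of 4 for Fgf12, 2 of 2 for Scn2b and 2 of 2 for Fgf14. The NS mean exceeded the NS receptor mean of 6.53 FPKM for 4 of the 9 genes, Scn1a, Scn3a, Scn8a and Fgf14, a count of 2 when NS_16 was left out. In LS cells the mean of each of the 9 genes exceeded the receptor mean of 0.489 FPKM. The share of all genes above the receptor mean was not computed for either group. A mean of 1 FPKM or more in LS cells was reached by 13464 of 20179 genes, so the LS count is not particular to the 9 genes.

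Since most NS cells were low in neuron markers, the cells with more than 50 FPKM of the synaptic gene Snap25 were also read on their own, a limit chosen after the values were seen. These were 30 LS cells and 3 NS cells, NS_12, NS_13 and NS_16. Fgf13 had a read in 26 of the 30 and in none of the 3, and Fgf14 in 16 and none. Scn8a, Scn1a and Scn3a had a read in each of the 3 NS cells, with means of 8.04, 46.2 and 12.02 FPKM, against 14.03, 4.81 and 4.12 FPKM in the 30 LS cells. Scn2a1 had a mean of 3.81 FPKM in the 3 NS cells and 16.7 FPKM in the 30 LS cells, Fgf12 of 8.20 and 17.1 FPKM, and Scn3b of 1.56 and 12.03 FPKM. Scn2b was higher in the 3 NS cells, with 18.96 against 8.26 FPKM, all of it from NS_16. All 3 of these NS cells carried Gad1 and Gad2, NS_16 together with 28.8 FPKM of the excitatory marker Slc17a7, and the marker class and the response cannot be told apart in them.

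By markers of transmitter type, 30 LS cells had more Slc17a7 and Neurod2 than Gad1 and Gad2 and 4 had the reverse, while NS cells were 2 and 6, and 1 LS and 4 NS cells had neither in excess. In the GABA-marked cells Fgf13 had a read in 4 of 4 LS cells (0.151 to 169.4 FPKM, mean 51.1 ± 79.5, SD, n = 4 cells) and in 0 of 6 NS cells, and in the glutamate-marked LS cells in 24 of 30 (mean 17.4 ± 27.96 FPKM, SD, n = 30 cells). Without LS_39 the mean of Fgf13 in the GABA-marked LS cells was 11.6 FPKM (n = 3 cells), below that of the glutamate-marked cells. The other 8 genes had a higher mean in the glutamate-marked than in the GABA-marked LS cells, from 15.3 against 14.1 FPKM for Scn2a1 to 12.4 against 1.07 FPKM for Scn3b. The share of all genes with this direction was not computed, so the count cannot be read as a trait of these genes. Without LS_39 the order turned for Scn2a1 (15.3 against 17.6 FPKM), and by a margin of little size for Scn3a (3.787 against 3.804 FPKM). Scn1a was at 0.220 to 1.53 FPKM in the 4 GABA-marked LS cells, while of the 6 GABA-marked NS cells 3 were at 0 and 3 at 8.23 to 87.1 FPKM.

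Other genes of the pathway were counted in the same way. Of 8 other sodium channel, leak channel and FHF genes (Scn4b, Scn4a, Scn7a, Scn9a, Scn10a, Scn11a, Fgf11 and Nalcn), 7 reached a mean of 1 FPKM in either group. Of these 7, 1 had a higher LS mean, against 47.6% of all genes, and none had a log2 ratio above 2.5, against 18%. A ratio below -2.5 was found for 5, against 22.5%. These 5 had LS means of 0.0239 to 0.472 FPKM and reached 1 FPKM in NS cells only, so the limit of 1 FPKM itself favoured a ratio far below 0. The highest NS cell of these 5 was NS_15 for Scn4b and Scn4a, NS_7 for Scn10a, NS_2 for Scn11a and NS_4 for Scn9a. Receptor genes stood at 211.5% in NS_15, 100.2% in NS_7, 33.1% in NS_2 and 25.8% in NS_4. With each cell left out in turn, all 5 stayed below -2.5, which does not undo the effect of that limit on which genes were counted. The part of unspecific reads in these NS levels was not tested. Nalcn, the sodium leak channel, was seen in 21 LS cells and 2 NS cells, at means of 3.69 and 1.95 FPKM. The muscle channel Scn4a and the sensory neuron channels Scn9a, Scn10a and Scn11a were seen in 2 to 5 LS cells each, and their NS means rested on 2 to 4 cells each.

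The genes that anchor sodium channels at the axon initial segment were mixed. Of 7 genes of this site (Ank3, Ank2, Sptbn4, Nfasc, Nrcam, Cntn1 and Kcnq3), 4 had a higher LS mean, against 47.6% of all genes, 2 had a log2 ratio above 2.5, against 18%, and 1 had a ratio below -2.5, against 22.5%. With so few genes these counts are near the shares of all genes. Cntn1, a cell adhesion molecule that binds beta subunits, averaged 12.5 FPKM in LS against 1.88 in NS cells, and Kcnq3, a potassium channel of the initial segment, had 4.86 and 0.666 FPKM. Ank3, the ankyrin that holds sodium channels in place, averaged 4.32 FPKM in LS against 7.73 in NS cells, with 77.3 FPKM in NS_16 and an NS mean of 1.401 FPKM without that cell, so that the direction turned. Sptbn4, the spectrin of the segment, had 2.54 and 21.2 FPKM, the latter 12.3 FPKM without NS_11. Ank2 had 11.9 and 14.8 FPKM, and without NS_13, with 83.04 FPKM, its NS mean was 8.58 FPKM and the direction turned, as it also did without NS_16. Nfasc, with 8.45 against 6.06 FPKM, and Nrcam, with 19 against 10.4 FPKM, are adhesion molecules of the same site. All 7 had a read in a larger share of LS than of NS cells, as did 72.5% of all genes.

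Likeness over the 35 LS cells was ranked by Spearman rho among 6121 genes seen in 50% of them or more. The genes most like Fgf13 were Rfc1 (0.59), Zdhhc8 (0.56), Sez6 (0.54), Sec11c (0.54) and Fam178a (0.54). Among the 9 genes Scn2a1 was the most like it, at rho 0.27, and its relatives Fgf14 and Fgf12 stood at 0.16 and -0.07. The genes most like Scn2a1 were Kifap3 (0.75), Trpc1 (0.72), Cadps (0.67), Mapt (0.66) and Nfix (0.66), and among the 9 genes Fgf12 (0.50) and Scn8a (0.48) came first. These values are descriptions over cells that share depth and amplification. The rho with the number of reads per cell was -0.01 for Fgf13, -0.05 for Scn2a1 and -0.44 for Scn1a.

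**Figure D5:**
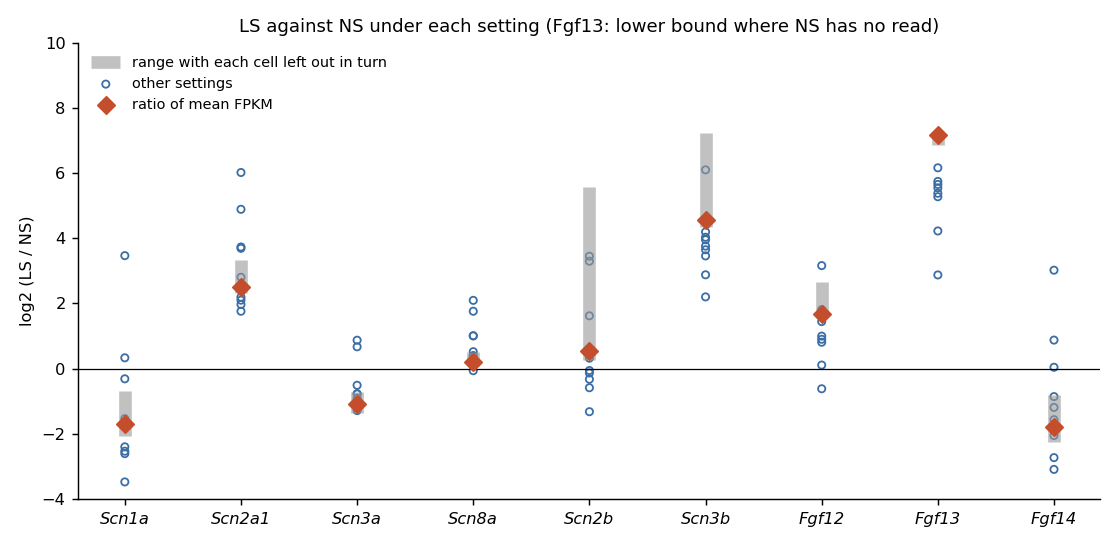
Log2 ratio of LS over NS for each gene (vertical axis), with a diamond for the ratio of mean FPKM except for Fgf13. A grey bar gives the range when each cell is left out in turn, and circles give the other settings. Scn2a1, Scn3b and Fgf13 lie above 0 under each setting run, and Scn1a, Scn3a, Scn8a, Scn2b, Fgf12 and Fgf14 cross 0 in at least 1 setting. For Fgf13 values against NS cells without a read take 3 NS reads as an assumed limit, except those of mean log2 values.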

How the data were processed

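Single somata of layer 2/3 of V1 were sequenced by Smart-seq2, without molecular identifiers. The authors trimmed the reads with AfterQC, aligned them to GRCm38 with STAR (version 2.5.3a), counted them with featureCounts, and deposited FPKM made with scater, without genes that never reached 1 FPKM or do not code for protein. No per-cell column stayed unused (0). Whole reads were recovered from the FPKM steps: the product of FPKM and exon length steps by a fixed amount within each cell. Lengths came from GENCODE M21 or were solved from the values, and 99.5% of values lay in solved genes. On simulated data 63 of 63 totals and 99.97% of values in solved genes came back. Of the planted ratios over 2585 genes, 200 of 200 were within 0.2. These planted ratios check the computation, and not the accuracy of the LS to NS ratios of the real cells. In the real cells the log2 ratio of Scn2b moved from 0.55 to 5.56 when NS_16 alone was left out.

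The study's filters were applied in order, by cDNA (cells by name), 1000 genes above 1 FPKM, a mitochondrial share of 25%, and products of astrocyte, oligodendrocyte or joint excitatory and inhibitory markers. They left fewer LS cells than the study states. Group values are means over cells, with exact binomial and Poisson 95% intervals, and a floor of 3 reads for a group at 0. Cells were thinned with the seed 11. The 9 genes, the lists and the markers were chosen with earlier results of these data known. Values besides those of the 9 genes were given for listed genes seen in 50% of LS cells or more and the 5 nearest genes by Spearman rho for Fgf13 and Scn2a1. Markers and the rarer listed genes are named as lists, and the cells named, with their Sst, Vip and Slc17a7 levels, were chosen after their values were seen. Coding sequences were those of the longest coding transcript of each gene in GENCODE M21, matched for Scn2a1 through RefSeq synonyms and aligned with Biopython 1.88. Scripts ran under Python 3.11.15 with scipy 1.17.1, pandas 2.3.3, numpy 2.4.6 and matplotlib 3.10.9. Some listed genes and sequences are not reported here, and the list counts leave them out.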

Additional observations from a re-analysis of the deposited data

How the results depend on the processing

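Fgf13 and Scn3b kept a log2 ratio above 0 under each of the 10 other settings run for them, from 2.87 to 7.16 for Fgf13 and from 2.20 to 6.10 for Scn3b. Of the 9 genes, 4 to 8 had a higher LS mean over the 12 other settings. The number with a log2 ratio above 2.5 was 3, and became 1 with means of log2(FPKM + 1), 5 with means of log2(FPKM + 0.1) and 5 in cells with more excitatory than inhibitory markers, a setting with 2 NS cells. It was not computed for medians, since most NS medians are 0. Leaving out each cell in turn gave 2 to 4, with 4 without NS_16. The number of genes with an NS mean above the receptor genes was 4, and 2 to 5 with each cell left out. Fgf13 had a read in 65.7% to 84.4% of LS cells and in 0% to 5.88% of NS cells, the last with all 63 cells. With genes of at least 5 FPKM as background, 45.2% of 11640 genes had a higher LS mean and 16.5% a ratio above 2.5. The setting of cells with a read of Snap25, all alternatives of the order, receptor and marker class counts, the leave-outs of listed genes and the second limit for Fgf13 were added after the data were seen. No paired analysis was possible because the result comes from no test and the numbers of LS and NS cells only name them. The 12 NS cells and their lower depth limit each NS share, and absence of reads is not absence of expression.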

Other observations

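LS_43 had no read of any of the 9 genes and 2.89 FPKM of summed general neuron markers, and LS_13 had 0.163 FPKM of summed alpha subunits and no read of the other 5 genes. Among the 12 NS cells NS_16 had reads of 7 of the 9 genes and the others of 1 to 4. In NS_12, 90.2% of the values below 50 reads were even numbers, against 24.6% to 49.9% in the other cells.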
